A study of Homo sapiens with 4 samples.

Results

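The genes described here are the alpha-like globins HBZ, HBM, HBA2, HBA1 and HBQ1, the beta-like globins HBE1, HBG2, HBG1 and HBB, and AHSP, the chaperone of free alpha globin. They were chosen by gene symbol, and all 10 were among the 28412 genes of the deposited expression table. To investigate how these genes differ when LDB1 is knocked down, RNA-seq was compared between 2 libraries of cells carrying the control vector sh-NC and 2 libraries of cells carrying sh-LDB1. The labels call the cells NB4, a human line derived from acute promyelocytic leukemia, and describe the controls as untreated and the other group as LDB1 knockdown, while the study names sh-NC as a lentiviral vector. The study used the lentiviral vector pLKO.1, so both groups carried a vector. The labels give no time after infection and do not say which shRNA against LDB1 was sequenced, or whether the replicates came from separate cultures, so p-values measure only the spread between these libraries, which may be technical.

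Hemoglobin is a tetramer of alpha-like and beta-like chains, each of which holds a heme group. The alpha-like genes lie together near the telomere of the short arm of chromosome 16, with embryonic HBZ first along the chromosome and fetal and adult HBA2 and HBA1 behind it. The beta-like genes lie together on chromosome 11, where embryonic HBE1, fetal HBG2 and HBG1 and adult HBB follow each other from the distant enhancer, the locus control region. LDB1 is an adaptor protein that has no DNA-binding domain of its own. In erythroid cells it sits in a complex with LMO2, TAL1 and GATA1, and it is known for bringing the globin enhancers close to the globin promoters.

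On genome build hg38 the alpha-like genes spanned chromosome 16 from 152644 to 181179, all on the plus strand, and the beta-like genes spanned chromosome 11 from 5225464 to 5269945, all on the minus strand. AHSP lies elsewhere on chromosome 16, from 31527900 to 31528803 on the plus strand. Each of the 10 genes has 3 exons in its canonical transcript (GENCODE release 44). Of the 10 genes, only HBM had an entry in the RefSeq promoter table used here (GRCh38.p14). Its promoter is shown as the alpha-like gene with an entry. HBD, the minor adult beta-like gene, is shown beside it, chosen after its values were seen, because it kept the largest share of its control level among the measured genes of the beta cluster. Both run from 250 bases before to 50 bases after the start of the gene, 5′ to 3′ on the strand of the gene, with matches to GATAA, the core of the GATA factor motif, and to CCNCNCCC, a CACCC-box pattern of the KLF factors, in capitals on either strand.
HBM, chr16:165728-166027, plus strand: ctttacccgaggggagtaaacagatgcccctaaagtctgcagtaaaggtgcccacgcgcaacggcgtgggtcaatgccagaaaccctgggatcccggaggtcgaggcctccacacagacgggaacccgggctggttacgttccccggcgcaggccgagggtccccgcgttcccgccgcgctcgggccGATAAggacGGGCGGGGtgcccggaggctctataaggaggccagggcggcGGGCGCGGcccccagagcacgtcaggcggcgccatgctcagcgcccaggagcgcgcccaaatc
HBD, chr11:5234434-5234733, minus strand: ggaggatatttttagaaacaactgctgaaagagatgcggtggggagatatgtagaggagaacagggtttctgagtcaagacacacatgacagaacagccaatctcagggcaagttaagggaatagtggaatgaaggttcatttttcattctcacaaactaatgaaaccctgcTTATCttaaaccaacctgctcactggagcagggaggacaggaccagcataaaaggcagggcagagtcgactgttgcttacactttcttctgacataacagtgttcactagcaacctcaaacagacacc

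The HBM window held 1 match to GATAA, beginning 63 bases before the start, and 2 matches to CCNCNCCC, beginning 54 and 13 bases before it. The HBD window held 1 match to GATAA, beginning 78 bases before the start and read on the opposite strand as TTATC, and 0 matches to CCNCNCCC. It also held 1 match to CCAAT, beginning 153 bases before the start, where the HBM window held 0. Over 35093 promoters of the same length, 22.7% held GATAA, 56.2% held CCNCNCCC and 34.6% held CCAAT on either strand, so these letters are common and a match is not a binding site.

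The targeted gene was examined first, since it checks the labels. LDB1 was at 135.1 and 120.1 FPKM under sh-NC against 10.2 and 9.47 FPKM under sh-LDB1, where FPKM is fragments scaled to the length of the gene and the depth of the library, as deposited. The groups did not overlap, which was also so of 46.3% of all genes tested in this direction. The fitted log2 fold change was -3.56 (SE 0.0765, limma, adjusted p = 6.95e-05). Fold changes are on the log2(FPKM + 1) scale throughout, which understates the change of genes at low levels, and the 13298 rows whose mean reached 1 FPKM were tested. Of these, 10.3% were called lower in sh-LDB1, at a Benjamini-Hochberg adjusted p below 0.05 and a fold change below 0.5, and the median log2 fold change of all was -0.08. The FPKM had been divided by 14746656 to 16182673 reads per library, as recovered from the steps between low values, and the reads given below for each gene come from the same steps.

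Markers of the cell type were examined next. The list of promyelocyte markers, which encode granule proteins and factors of the neutrophil lineage, summed to 84.9 and 85.6 FPKM under sh-NC and to 136.4 and 132.2 FPKM under sh-LDB1. Of its 18 genes, 13 were in the table, of which 7 reached 1 FPKM in all 4 libraries, and the listed genes outside the table are not analysed here. ELANE, which encodes neutrophil elastase, was listed at 0 in all libraries but sh-LDB1 replicate 1, where it was at 0.182 FPKM. The erythroid list, which holds genes of the red cell membrane and its regulators, summed to 1588 and 1649 FPKM under sh-NC and to 282.5 and 271.5 FPKM under sh-LDB1, with 18 of its 23 genes in the table at 1 FPKM or more in all 4 libraries. The libraries labelled NB4 thus held more summed RNA of the erythroid list than of the promyelocyte list in both groups, which goes against the labelled promyelocytic type. The study states that its lines were authenticated by profiling of short tandem repeats, and its supplement holds an NB-4 profile that matched the reference line. The study does not say whether the profiled culture was the one sequenced. The RNA thus puts the identity of the sequenced cells in question, which was not tested here. The cells are named only as the labels name them. In bulk RNA, fewer cells of a type and less RNA per cell cannot be told apart.

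Results showed that the alpha-like genes were abundant in sh-NC and far lower in sh-LDB1. HBZ, the embryonic alpha-like chain, had the largest change of the 10 genes and ranked 3 among all rows ordered from the largest fall. HBA1 and HBA2, HBQ1 and HBM also fell past the threshold. In the beta cluster, the fetal gamma genes HBG1 and HBG2 fell past the threshold, while HBE1, at 7 to 21 reads per library, and HBB, at 3 to 8 reads, lay under the filter. AHSP was low in sh-NC and at 0 to 3 reads in sh-LDB1.

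HBZ (ENSG00000130656; chromosome 16, 152644 to 154503) was at 1543 and 1600 FPKM under sh-NC against 58.9 and 61.3 FPKM under sh-LDB1. Both sh-NC libraries were high, both sh-LDB1 libraries were low, and the replicates lay close together within each group. The mean went from 1572 ± 40.3 FPKM to 60.1 ± 1.70 FPKM (SD, n = 2 each), which left 3.82% of the control level, a 26.2-fold difference. On the log2 scale the difference was -4.69 (SE 0.0465, limma, adjusted p = 6.82e-05). These values rested on 37710 and 35632 recovered reads in sh-NC and on 1424 and 1400 in sh-LDB1, so counting error was small beside the difference. These reads are all even, so a shorter gene length with fewer reads would fit as well.

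HBA1 and HBA2 encode the same alpha chain and share nearly all of their sequence, so the authors' counting may have split reads between them and their sum is the safer value. The sum was 1495 and 1565 FPKM under sh-NC against 165.6 and 143.8 FPKM under sh-LDB1, with no overlap between the groups. The mean went from 1530 ± 49.6 FPKM to 154.7 ± 15.4 FPKM (SD, n = 2 each), or 10.1% of the control level. This was a log2 fold change of -3.30 (SE 0.0821, limma, adjusted p = 7.63e-05), and it ranked 16 from the largest fall. Taken separately, HBA2 (chromosome 16, 172876 to 173710) was at 1035 and 944.5 FPKM under sh-NC against 107.7 and 105.6 FPKM under sh-LDB1. HBA1 (chromosome 16, 176680 to 177522) was at 459.8 and 620.4 FPKM under sh-NC against 57.9 and 38.2 FPKM under sh-LDB1. HBA2 was listed above HBA1 in every library, and the ratio of HBA2 to HBA1 differed more between replicates than between groups, at 2.25 and 1.52 under sh-NC against 1.86 and 2.76 under sh-LDB1 (two-sided exact permutation test, p = 0.667).

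HBQ1 (ENSG00000086506; chromosome 16, 180459 to 181179) encodes theta globin, an alpha-like chain whose part in hemoglobin is not established. It was at 93.5 and 84.0 FPKM under sh-NC against 19.7 and 19.0 FPKM under sh-LDB1, or 21.8% of the control level. The fitted log2 fold change was -2.14 (SE 0.066, limma, adjusted p = 9.50e-05). HBQ1 kept the largest share of its control level among the 4 alpha-like rows tested, and HBZ, at the other end of the cluster, kept the smallest by mean FPKM. The interval of HBM, given below, includes the share of HBZ.

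HBM (ENSG00000206177; chromosome 16, 165978 to 166764) encodes mu globin, an alpha-like gene whose RNA is known from erythroid cells. It was at 3.51 and 4.59 FPKM under sh-NC against 0.136 and 0.289 FPKM under sh-LDB1, which stood for 52 and 62 reads against 2 and 4 reads. By summed reads and library depth, HBM kept 5.22% of its control level, with an exact binomial 95% interval of 1.88% to 11.7%. This interval covers counting error only. The recovered HBM reads are all even, so fewer reads would fit as well and the interval could be wider. On the log2 scale the difference was -2.05 (SE 0.163, limma, adjusted p = 0.000619). HBM passed the filter only through its level in sh-NC, so a difference was needed for it to be tested at all.

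**Figure D1:**
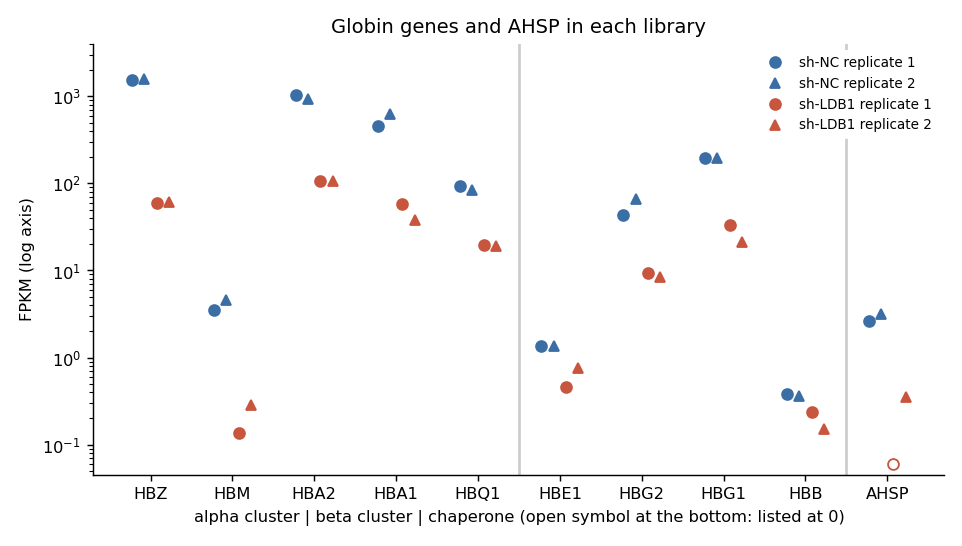
FPKM of the 10 genes (log axis) in each of the 4 libraries, blue for sh-NC and red for sh-LDB1, with circles for replicate 1 and triangles for replicate 2. For every gene both sh-NC libraries lie above both sh-LDB1 libraries, as was so of 46.3% of all rows tested. HBE1 and HBB did not pass the test. The highest value is 1600 FPKM for HBZ, and the lowest above 0 is 0.136 FPKM for HBM. The open circle marks AHSP listed at 0 in sh-LDB1 replicate 1.

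In the beta cluster, HBG1 and HBG2 encode the gamma chains of fetal hemoglobin and are near-identical copies, so they were also summed. The sum was 238.6 and 261.1 FPKM under sh-NC against 42.8 and 29.8 FPKM under sh-LDB1. Both sh-LDB1 libraries were low, with a wider spread between them than for HBZ. The mean went from 249.9 ± 15.96 FPKM to 36.3 ± 9.15 FPKM (SD, n = 2 each), or 14.5% of the control level. This was a log2 fold change of -2.77 (SE 0.179, limma, adjusted p = 0.00036), and it ranked 35 from the largest fall. HBG1 (chromosome 11, 5248269 to 5249857) was listed at 194.8 and 194.1 FPKM under sh-NC against 33.3 and 21.5 FPKM under sh-LDB1. HBG2 (chromosome 11, 5253188 to 5254781) was listed at 43.8 and 67.0 FPKM under sh-NC against 9.48 and 8.37 FPKM under sh-LDB1. The ratio of HBG1 to HBG2 ran from 2.57 to 4.45 over the 4 libraries, and as with HBA1 and HBA2 the split between the copies is uncertain.

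HBE1 (ENSG00000213931; chromosome 11, 5268345 to 5269945), the embryonic epsilon chain, was at 1.35 and 1.34 FPKM under sh-NC against 0.455 and 0.756 FPKM under sh-LDB1. These values stood for 21 and 19 reads against 7 and 11 reads, and by summed reads HBE1 was at 44.7% of its control level, with an exact binomial 95% interval of 24.1% to 79.7%. HBB (ENSG00000244734; chromosome 11, 5225464 to 5227071), the adult beta chain, was at 0.379 and 0.364 FPKM under sh-NC against 0.239 and 0.152 FPKM under sh-LDB1. It rested on 8 and 7 reads against 5 and 3 reads, and its interval, 19.4% to 133% of the control level, includes no difference. Both genes were listed lower in both sh-LDB1 libraries, but with no filter on low values neither passed the test (limma, adjusted p = 0.0676 for HBE1 and 0.125 for HBB). Reads of HBB could also be shared with the similar HBD, and reads of HBE1 with the gamma genes.

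The embryonic genes of the clusters thus differed in level in these cells. HBZ made up 49.2% of the alpha-like FPKM in each sh-NC library, whereas HBE1 made up 0.562% and 0.510% of the beta-like FPKM. The gamma genes held nearly all of the beta-like FPKM in each group, at 99.3% and 99.4% under sh-NC against 98.4% and 97.0% under sh-LDB1. The adult HBB held 0.158% and 0.138% under sh-NC against 0.551% and 0.495% under sh-LDB1, which rests on the few reads given above.

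AHSP (ENSG00000169877) encodes the protein that binds free alpha globin and keeps it from precipitating. It was at 2.64 and 3.14 FPKM under sh-NC, was listed at 0 in sh-LDB1 replicate 1 and reached 0.353 FPKM in sh-LDB1 replicate 2. These stood for 24 and 26 reads against 0 and 3 reads, and by summed reads AHSP was at 5.96% of its control level, with an exact binomial 95% interval of 1.19% to 18.4%. The 0 reads allow up to 3 reads in that library. The fitted log2 fold change was -1.74 (SE 0.203, limma, adjusted p = 0.00195). Like HBM, AHSP passed the filter only through sh-NC, and its call was lost with a pseudocount of 0.01 (limma, adjusted p = 0.0553) and when the fold change itself was tested against 2 (limma treat, adjusted p = 0.0943). Per 1000 FPKM of alpha-like RNA, AHSP was at 0.842 and 0.964 FPKM under sh-NC against 0 and 1.57 FPKM under sh-LDB1, so the sh-LDB1 libraries lay on either side of the controls and the direction of this ratio changed without sh-LDB1 replicate 1.

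With no filter on low values, all 10 genes entered the test as 8 rows, of which 6 were called lower, beside 4.87% of 28410 rows. The members share a cell line, 4 libraries and 2 gene clusters, so they are not independent of each other.

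**Figure D2:**
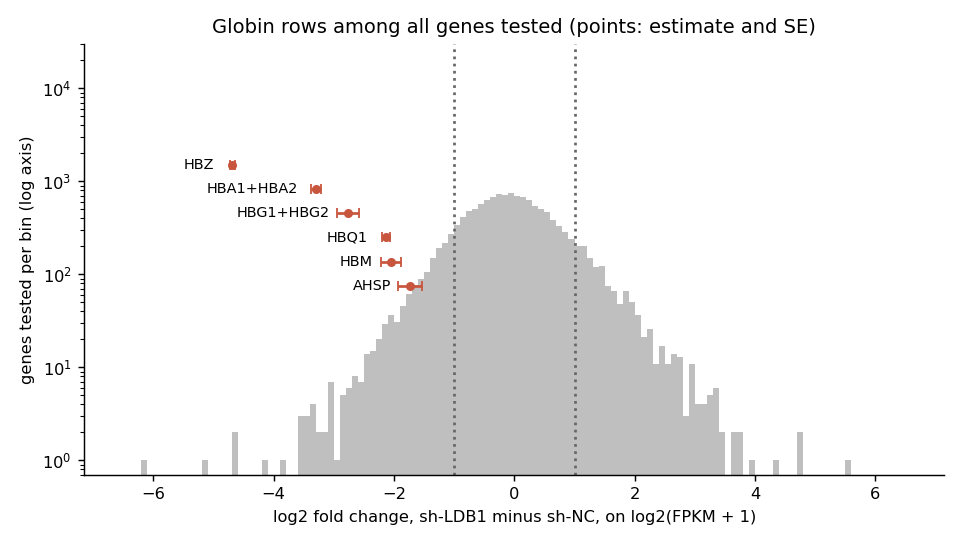
Number of tested genes by log2 fold change, sh-LDB1 minus sh-NC, on the log2(FPKM + 1) scale (gray bars, log axis), with the estimate and standard error of the globin rows and AHSP as red points at heights that carry no meaning. The dotted lines mark a fold change of 2 in either direction, and all 6 points lie to the left of the lower line, from -1.74 for AHSP to -4.69 for HBZ. HBM and AHSP passed the filter only through sh-NC, so a fall was needed for them to be drawn, and HBE1 and HBB lay under it. Of all rows tested, 10.3% were called lower.

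The clusters were then compared as wholes. Summed over its 5 genes, the alpha cluster was at 3135 and 3254 FPKM under sh-NC against 244.2 and 224.3 FPKM under sh-LDB1, or 7.33% of the control level. Summed over its 4 genes, the beta cluster was at 240.3 and 262.9 FPKM under sh-NC against 43.5 and 30.7 FPKM under sh-LDB1, or 14.8% of the control level. Together the 9 globin genes took 1.06% and 1.10% of all summed FPKM under sh-NC against 0.101% and 0.0906% under sh-LDB1.

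The ratio of alpha-like to beta-like FPKM was 13.0 and 12.4 under sh-NC against 5.62 and 7.30 under sh-LDB1, so the alpha cluster was lower relative to the beta cluster in both knockdown libraries. The mean ratio was 12.7 ± 0.472 in sh-NC and 6.46 ± 1.19 in sh-LDB1 (SD, n = 2 each). With 2 libraries against 2, a two-sided exact permutation test cannot give less than p = 0.333, the value it gave here, so this difference could not reach the threshold. A ratio within a library does not depend on the scaling between libraries, but its level depends on gene lengths. Counted as recovered reads, which for HBZ rest on an uncertain length, the ratio was 9.98 and 9.85 under sh-NC against 3.69 and 5.07 under sh-LDB1.

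The balance within the alpha cluster also differed between the groups. HBZ took 49.2% of the alpha-like FPKM in each sh-NC library and 24.1% and 27.3% under sh-LDB1, while HBA1 and HBA2 together took 47.7% and 48.1% under sh-NC against 67.8% and 64.1% under sh-LDB1. HBQ1 took 2.98% and 2.58% under sh-NC against 8.06% and 8.46% under sh-LDB1. None of these 3 shares overlapped between the groups, and each reached the smallest p that the exact permutation test allows, 0.333. HBM took between 0.0558% and 0.141% in the 4 libraries, with overlap.

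The ratio of embryonic HBZ to HBA1 and HBA2 gives the same comparison in 1 number. It was 1.03 and 1.02 under sh-NC against 0.356 and 0.426 under sh-LDB1 (exact permutation test, p = 0.333). The lengths behind the deposited FPKM, as fitted to the reads, were 1510 bases for HBZ against 798 in the canonical transcript, and 827 and 835 bases for HBA2 and HBA1 against 576 and 577. At these lengths the ratio by reads was 1.88 and 1.86 under sh-NC against 0.647 and 0.776 under sh-LDB1. The recovered HBZ reads were all even, so a shorter length would fit them as well and give a lower ratio. Reads are also not divided by gene length. Whether the order of HBZ and the HBA genes in level turned between the groups therefore cannot be told from them. In FPKM, HBZ and the HBA genes were nearly equal in sh-NC, and HBZ was below them in sh-LDB1. The ratio of HBZ to HBQ1 was 16.5 and 19.0 under sh-NC against 2.99 and 3.23 under sh-LDB1, the widest relative shift of the 4 ratios between alpha-like genes examined.

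Between the clusters, the ratio of HBA1 and HBA2 to HBG1 and HBG2, which together give the chains of fetal hemoglobin, was 6.27 and 5.99 under sh-NC against 3.87 and 4.82 under sh-LDB1 (exact permutation test, p = 0.333). This ratio moved less than that of HBZ to the HBA genes, at 70.9% of the control ratio against 38.0%. Over all ratios, shares and sums computed, 18 exact permutation tests were made on the FPKM, and with adjustment over them none could pass 0.05.

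**Figure D3:**
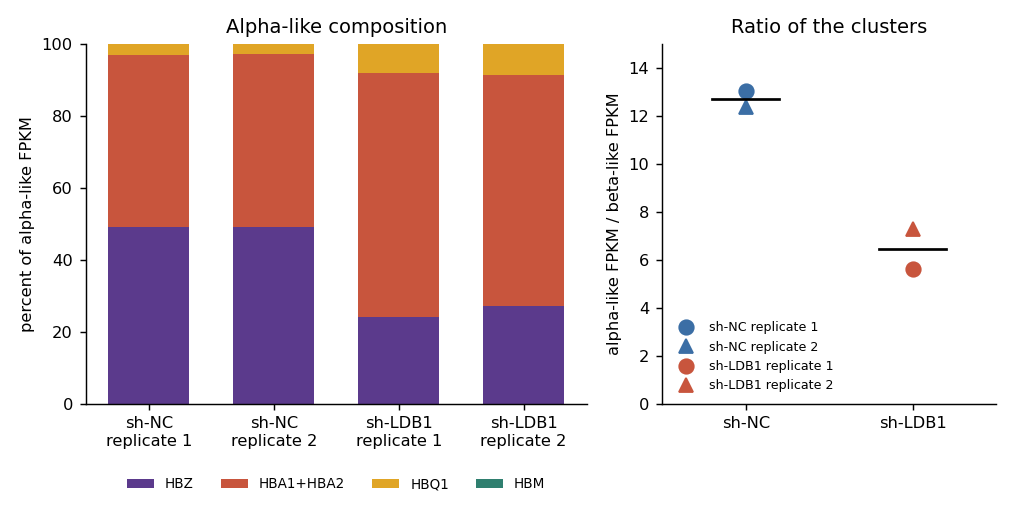
Left, percent of the alpha-like FPKM taken by HBZ, HBA1 and HBA2, HBQ1 and HBM in each library, where HBM is too thin to see. Right, ratio of alpha-like to beta-like FPKM in each library, with bars at the group means of 12.7 and 6.46. HBZ takes 49.2% in both sh-NC libraries and 24.1% and 27.3% under sh-LDB1.

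The other transcribed globin genes of the beta cluster lay between the members along the chromosome. HBBP1, a beta-like pseudogene, was at 32.9 and 38.1 FPKM under sh-NC against 2.40 and 2.27 FPKM under sh-LDB1 (log2 fold change -3.45, limma, adjusted p = 7.54e-05). BGLT3, a noncoding RNA gene near HBG1, was at 14.6 and 15.4 FPKM under sh-NC against 1.07 and 0.932 FPKM under sh-LDB1 (log2 fold change -3.00, limma, adjusted p = 7.38e-05). HBD (ENSG00000223609; chromosome 11, 5232838 to 5234483) was at 7.59 and 9.98 FPKM under sh-NC against 5.31 and 5.52 FPKM under sh-LDB1, which was not past the fold threshold (log2 fold change -0.60, SE 0.131, limma, adjusted p = 0.0146). HBD thus kept 61.6% of its control level where HBBP1 kept 6.59% and BGLT3 kept 6.65%. In sh-NC, HBD was above HBB by listed FPKM in both libraries. MB and CYGB, which encode globins outside the clusters, and HBZP1 were each under 1 FPKM in all 4 libraries.

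The genes around the alpha cluster were examined for whether they moved with it. Of 12 flanking genes tested, 4 were called lower and 0 higher, with a median log2 fold change of -0.59, beside 10.3% called lower and a median of -0.08 over all rows. Within 200 kb of the cluster, 10 were tested and 3 were called lower, namely POLR3K at -1.31, SNRNP25 at -1.14 and AXIN1 at -1.05 (limma). NME4, which lies just beyond, was at -1.02. With the values rescaled to TPM, 1 of the 12 flanking genes was called lower, beside 999 of all 13298 rows. This is near the share over all rows, so the larger share of lower calls was not kept under that scaling. Most of these calls lay close to the fold threshold.

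Without the fold threshold, 9 of the 12 alpha flanking genes were lower and 2 higher at an adjusted p below 0.05, beside 37.4% of all rows lower. The neighbours nearest to the cluster were lower past the p threshold but not past the fold threshold. NPRL3, whose introns hold the main alpha globin enhancers, was at 24.9 and 25.8 FPKM under sh-NC against 16.7 and 15.8 FPKM under sh-LDB1, a log2 fold change of -0.61 (limma, adjusted p = 0.00073). LUC7L, on the other side of the cluster, was at 19.9 and 20.1 FPKM under sh-NC against 11.6 and 12.1 FPKM under sh-LDB1, a log2 fold change of -0.71 (limma, adjusted p = 0.000402). MPG, a DNA repair glycosylase gene, was at 29.0 and 25.4 FPKM under sh-NC against 30.1 and 38.5 FPKM under sh-LDB1 and did not pass the test (log2 fold change 0.31, limma, adjusted p = 0.105). The log2 fold changes of the other flanking genes within 200 kb were -0.44 for RHBDF1, -0.32 for FAM234A, -0.57 for MRPL28 and 0.67 for TMEM8A.

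**Figure D4:**
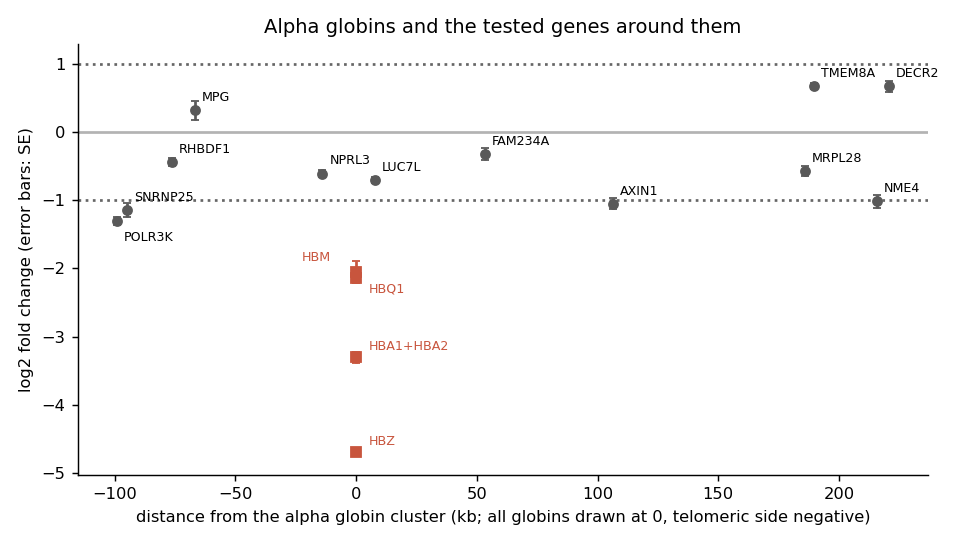
Log2 fold change, sh-LDB1 minus sh-NC, with its standard error, of the tested genes around the alpha globin cluster by distance from the cluster in kb (gray circles), with the alpha-like globin rows drawn at 0 (red squares). The dotted lines mark a fold change of 2 in either direction, and the neighbours lie between -1.31 and 0.67 while the globin rows lie between -2.05 and -4.69.

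Around the beta cluster, 13 flanking genes were tested, of which 2 were called lower and 2 higher, with a median log2 fold change of 0.30. These counts lie near the shares over all rows, 10.3% lower and 9.51% higher, where the median was -0.08. The tested genes other than OR51B5 lay 326 to 1343 kb from the cluster, while the tested alpha flanking genes lay within 221 kb of theirs. The beta counts are therefore mostly of distant genes, unlike the alpha counts. Within 200 kb of the cluster, OR51B5 alone was tested. This gene of the olfactory receptor family was at 6.61 and 6.65 FPKM under sh-NC against 0.929 and 0.883 FPKM under sh-LDB1 (log2 fold change -2.00, limma, adjusted p = 0.000122). Its annotated span on the minus strand, from 5303444 to 5505652, overlaps long annotated transcripts of HBG2 and HBE1, so its reads and theirs cannot be told apart with certainty. The other called genes lay further away, with RRM1, a subunit gene of ribonucleotide reductase, at -1.14, TPP1, a lysosomal peptidase gene, at 1.56 and SMPD1, which encodes acid sphingomyelinase, at 1.20. RRM1 was not past the threshold with the values rescaled to TPM, where 1 of the 13 was called lower, beside 999 of all 13298 rows.

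The transcription factors known to act on the globin clusters were examined as a list. Of 35 tested, 10 were called lower and 0 higher, with a median log2 fold change of -0.58. Over all rows, 10.3% were called lower and the median was -0.08. LDB1, the target of the shRNA, is 1 of the 10, and without it 9 of 34 were called lower, with a median of -0.48. Besides LDB1 itself, the largest falls were in KLF1, the factor that binds the CACCC box of the adult beta globin promoter, NFE2, which binds the locus control region, and MYB, a factor of early blood cells. KLF1 was at 237.7 and 237.4 FPKM under sh-NC against 28.2 and 29.0 FPKM under sh-LDB1 (log2 fold change -3.01, limma, adjusted p = 6.82e-05). NFE2 was at 163 and 153 FPKM under sh-NC against 20.2 and 21.0 FPKM under sh-LDB1 (log2 fold change -2.88, limma, adjusted p = 6.82e-05). MYB was at 24.5 and 25.3 FPKM under sh-NC against 3.41 and 3.07 FPKM under sh-LDB1 (log2 fold change -2.61, limma, adjusted p = 7.48e-05). BCL11A, the repressor of the gamma genes, was picked out after its values were seen and was listed at 0 in all libraries but sh-LDB1 replicate 2, where it was at 0.0078 FPKM.

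Of the regulators of gamma globin that act on RNA or protein, 9 were tested, with a median log2 fold change of -0.67. Of these, 3 were called lower and 0 higher, beside 10.3% called lower over all rows. IGF2BP3 was at -1.30, IGF2BP2 at -1.08 and LIN28A at -1.07 on the log2 scale, all of them RNA-binding proteins. With the values rescaled to TPM, 1 of the 9 was called lower, beside 999 of all 13298 rows. When the fold change itself was tested against 2 with limma treat, 0 were called lower, beside 579 of all rows.

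Heme, which each globin chain needs, is made in a series of enzyme steps that begins with ALAS2 in erythroid cells and with ALAS1 in most others. Of 25 heme and iron genes tested, 15 were called lower and 3 higher, beside 10.3% lower and 9.51% higher over all rows. The median log2 fold change of the list was -1.05. ALAS2 was at 162.5 and 170.6 FPKM under sh-NC against 17.5 and 15.2 FPKM under sh-LDB1 (log2 fold change -3.27, limma, adjusted p = 7.38e-05). ABCB10, a mitochondrial transporter gene of erythroid cells, was at -3.24, and FECH, the last enzyme of the pathway, was at -2.50 on the log2 scale. The 3 genes called higher, named here because they are few, were FTL, the light chain of ferritin, at 1.87, ALAS1 at 1.83 and ALAD, the second enzyme, at 1.27. ALAS2 and ALAS1 thus changed in opposite directions.

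Of 21 erythroid markers tested, 20 were called lower and 0 higher, beside 10.3% called lower over all rows. The median log2 fold change of the list was -2.30. The largest falls were in HEMGN, a nuclear protein of blood cell precursors, at -6.16, SLC4A1, the band 3 anion exchanger, at -4.15, GYPB, a glycophorin, at -3.85 and SPTB, the erythroid beta spectrin, at -3.51 on the log2 scale. TRIM58 was the tested marker that was not called, at 13.8 and 11.9 FPKM under sh-NC against 11.6 and 10.3 FPKM under sh-LDB1. The erythroid, heme and transcription factor lists share members such as KLF1, GATA1, ALAS2 and TFRC, so their counts are not independent. The globins therefore moved beside a wide set of erythroid genes, and the part of that set in the globin result was not tested.

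Markers of other blood cells were examined in the same way. Of 9 promyelocyte markers tested, 0 were called lower and 3 higher, beside 9.51% called higher over all rows, with CSF3R at 2.25, LYZ at 1.59 and PRTN3 at 1.42 (limma). Their part in the globin result was not tested. Of 4 megakaryocyte markers tested, TUBB1 was called lower at -2.33, beside 10.3% called lower over all rows. The megakaryocyte list summed to 9.42 FPKM or more under sh-NC and to 6.29 FPKM or less under sh-LDB1. The monocyte list summed to under 1 FPKM in every library and had 0 genes to test. Of 2 lymphoid markers tested, 0 were called, and the list summed to 25.1 and 22.1 FPKM under sh-NC and to 45.8 and 48.1 FPKM under sh-LDB1, most of it CD3D, which was at 0.98 on the log2 scale (limma, adjusted p = 0.000779). No gene of the deposited table was at 0 in all 4 libraries, so the listed markers in it could not be either. Listed markers outside the table may have had no reads, which was not tested.

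**Figure D5:**
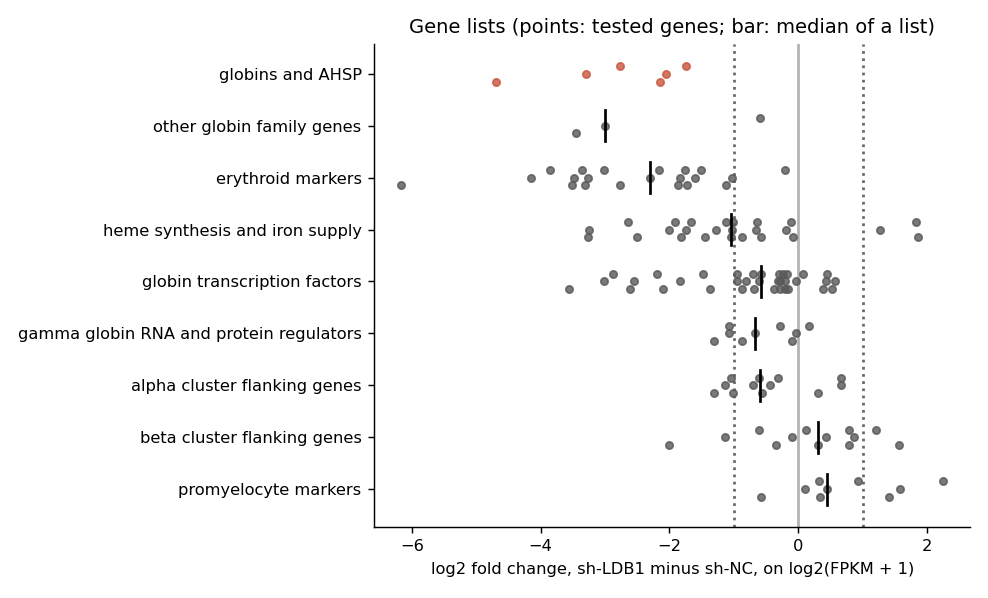
Log2 fold change, sh-LDB1 minus sh-NC, on the log2(FPKM + 1) scale, of every tested gene in the 9 groups shown (points, spread vertically for visibility), with a black bar at the median of each list other than the globins and AHSP. The dotted lines mark a fold change of 2 in either direction, and the medians drawn run from -3.00 for the other globin genes and -2.30 for the erythroid markers to 0.45 for the promyelocyte markers.

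The genes whose pattern over the 4 libraries was most like that of the 9 summed globins were sought among 4833 genes whose mean was 10 FPKM or more. Likeness was measured as the Euclidean distance between values of log2(FPKM + 1), each centred on its own mean. The nearest was LDB1 at a distance of 0.195, followed by TMOD1, which encodes a cap of actin filaments in the red cell membrane skeleton, at 0.246 and HBBP1 at 0.253. GYPB and GYPE, both of the glycophorin family, came next at 0.303 and 0.305. TMOD1 was at 25.0 and 25.8 FPKM under sh-NC against 1.51 and 1.39 FPKM under sh-LDB1. With 4 libraries in 2 groups, such a distance mainly ranks genes by the size of their change, and the summed globins fell by 3.66 on the log2 scale.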

How the data were processed

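RNA-seq of total RNA was analysed in 4 libraries, 2 labelled control (sh-NC) and 2 labelled LDB1 knockdown (sh-LDB1). The authors mapped the reads with HISAT2 2.0.5 to hg38, per the labels, and deposited FPKM for 28412 genes and each library, with 0 other columns of per-sample values. Which annotation and counter were used, and whether strand was used, is not given in the sources used here. The authors named DESeq2 for changed genes, and no count test was used here as the main test because counts were not the deposited unit.

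HBA1 and HBA2, and HBG1 and HBG2, entered as summed rows. The 13298 rows whose mean reached 1 FPKM were tested as log2(FPKM + 1) with limma 3.58.1 in R 4.3.3 (eBayes with trend, no replicate block), with Benjamini-Hochberg adjustment over all rows. A row was called lower or higher where the adjusted p was below 0.05 and the fold change was below 0.5 or above 2. Sums, shares and ratios were tested by exact permutation of the 4 libraries. Whole reads were recovered from the FPKM steps with GENCODE release 44 lengths, which matched 28193 genes and gave whole reads within 0.01 for 99.553% of them. The fitted length was within 10% of an annotated one for 87.487%. The absolute reads rest on those lengths. A shorter length fits equally well where all reads of a gene share a divisor, as for HBZ and HBM. Their reads are therefore uncertain. The recovered reads of all genes summed to more than the depths, so reads of other genes may be too high as well. The sums were 17944949 and 16489512 under sh-NC, where the depths were 16182673 and 14746656. Under sh-LDB1 the sums were 16773581 and 15770163, where the depths were 16021180 and 15131578, a smaller excess. Read ratios were given exact binomial 95% intervals scaled to the recovered depths. Only the limma fit was tried on simulated FPKM with known fold changes. Python 3.11.15, numpy 2.4.6, pandas 2.3.3 and scipy 1.17.1 were used.

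The members and the gene lists were chosen with earlier results of these data known. The genes named were the members, LDB1, up to 4 called genes of each list with the largest fold changes, tested flanking genes within 200 kb of a cluster, and the 5 genes nearest in pattern to the summed globins. CD3D, TRIM58, HBD, BCL11A, the ferritin and ALA genes called higher, and other listed genes given beside a count were added after their values were seen. Some of what the rule names is not reported here. Alternatives were other pseudocounts, filters and scalings, voom, treat, a replicate block and leaving out each library.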

Additional observations from a re-analysis of the deposited data

How the results depend on the processing

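HBZ, HBA1 and HBA2, HBG1 and HBG2, HBQ1 and HBM were called lower under each alternative that tested them. A filter at a mean of 5 FPKM left HBM and AHSP out. The call of AHSP was lost at a pseudocount of 0.01 (log2 fold change -5.58, limma, adjusted p = 0.0553) and under treat (-1.74, adjusted p = 0.0943). Under treat, which tests the fold change itself against 2, 579 rows were lower and 568 higher, beside 1369 and 1264, and a filter of 5 FPKM left 710 higher. Voom on the recovered reads called 1907 lower and 1726 higher. Rescaling to TPM moved the median log2 fold change of all rows by 0.14, with 999 rows called lower and 1602 higher. The counts were 1028 and 1575 with the globins left out of the scaling. The share of lower rows among the calls went from 52.0% to 38.4%, or to 39.5% with the globins left out.

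Of the alpha flanking genes, 1 was called lower under both TPM scalings and under treat, and 2 to 4 when a library was left out. Of the beta flanking genes, 1 was called lower under both TPM scalings, under treat and at the filter of 5 FPKM, and 4 were called higher at a pseudocount of 0.01 and with voom on the recovered reads, and 1 under treat. Of the gamma globin regulators, 1 was called lower under both TPM scalings and 0 under treat. Voom called 1 promyelocyte marker lower, and the filter of 5 FPKM left 0 megakaryocyte markers called. Among the lymphoid markers 1 was called higher at pseudocounts of 0.1 and 0.01, under both TPM scalings and with voom, and 0 to 1 when a library was left out.

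The difference in AHSP per 1000 alpha-like turned from -0.117 to 0.00735 by recovered reads, which for HBZ rest on an uncertain length. With a library left out it ran from -0.903 to 0.67, and it was 0.67 without sh-LDB1 replicate 1. The difference in the percent of HBM in alpha-like ran from -0.0707 to 0.00216 with a library left out, and it was 0.00216 without sh-LDB1 replicate 1. The cause was not tested.

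The replicate numbers are shared by the groups, and same-numbered libraries had a correlation of deviations of 0.0199. With 2 libraries per group, this value cannot show whether same-numbered libraries shared a culture or a preparation. With the replicate block, 1384 rows were lower and 1274 higher, HBZ had an adjusted p of 0.000408 and AHSP of 0.00208 (limma), and no call of a member changed. HBE1, HBB and AHSP rest on 0 to 26 reads per library, which limits what can be said of them.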
